A study of Mus musculus with 2 samples.

Results

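The genes described here were 33 ribosome biogenesis genes, chosen by name from a list of factors that make ribosomes. All 33 were found, each under 1 symbol, among the 32285 genes counted. They were measured by 3′ single-cell RNA-seq of liver sinusoidal endothelial cells (LSECs), the fenestrated cells that line the liver's capillaries, with 1 library from control mice (labelled WT) and 1 from *Maf* LSEC-KO mice (labelled KO, and called KO below). *Maf* encodes c-Maf, a transcription factor, and the comparison asked how its loss alters the LSEC transcriptome. Each library held the cells of a pool of 3 mice, so there was no replicate, and no test between the conditions could be made. *Maf* LSEC-KO mice carried *Clec4g-iCre* tg/wt and *Maf* fl/fl. Their Cre recombinase was driven by the promoter of *Clec4g*, a lectin gene of LSECs, and acts from late fetal life on. Control mice were littermates with *Clec4g-iCre* wt/wt and *Maf* fl/fl or fl/wt, so they carried floxed *Maf* and no Cre. The study used female and male mice at 3 and 6 months of age, and the sex and age of the pooled mice were not given. The cells had been enriched with beads against CD146, a surface protein of endothelial cells.

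Ribosome biogenesis starts in the nucleolus, where RNA polymerase I copies the ribosomal DNA into a long precursor RNA. Small nucleolar RNAs (snoRNAs) bound to core proteins guide its methylation (box C/D) and pseudouridylation (box H/ACA), while assembly factors fold, cut and escort the parts that become the small and the large subunit. The pathway is among the most costly of a growing cell, and the transcription factor Myc, which binds the E-box CACGTG together with Max, is known to drive many of its genes.

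RefSeq promoter windows of GRCm38.p6, from 250 bases before to 50 bases after a transcript's start, were matched for 28 of the 33 genes. Those of *Fbl*, *Rrp12*, *Bop1*, *Rrs1* and *Npm1* were not among them. CACGTG, which reads the same on both strands, was in a window of 7 genes (25%: *Mybbp1a*, *Wdr43*, *Pes1*, *Utp20*, *Nop2*, *Ltv1* and *Tsr1*). It was in a window of 17.9% of 112 other ribosome biogenesis genes, of 12.4% of the 7134 genes with a window and a level past the floor used below, and of 8.09% of all 27025 genes with a window. The windows of the 4 most abundant of the 7 members with CACGTG are shown, and in each the letters sit at or just downstream of the start. They are given 5′ to 3′ on the gene's strand, with CACGTG in capitals. *Mybbp1a* is at chr11:72441077-72441376 (+), *Wdr43* at chr17:71615965-71616264 (+), *Pes1* at chr11:3963725-3964024 (+) and *Utp20* at chr10:88826765-88827064 (-).
Mybbp1a: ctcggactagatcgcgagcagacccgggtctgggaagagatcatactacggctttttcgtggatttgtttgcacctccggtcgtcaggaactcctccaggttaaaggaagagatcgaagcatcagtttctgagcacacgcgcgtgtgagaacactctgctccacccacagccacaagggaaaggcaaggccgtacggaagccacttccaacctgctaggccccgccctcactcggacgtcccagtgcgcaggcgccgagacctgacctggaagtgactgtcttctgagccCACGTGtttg
Wdr43: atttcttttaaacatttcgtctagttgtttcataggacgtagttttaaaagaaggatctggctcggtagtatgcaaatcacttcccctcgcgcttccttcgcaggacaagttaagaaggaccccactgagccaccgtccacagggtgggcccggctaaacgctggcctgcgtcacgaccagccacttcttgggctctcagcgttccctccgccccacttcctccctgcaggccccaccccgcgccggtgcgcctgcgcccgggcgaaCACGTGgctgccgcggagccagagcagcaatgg
Pes1: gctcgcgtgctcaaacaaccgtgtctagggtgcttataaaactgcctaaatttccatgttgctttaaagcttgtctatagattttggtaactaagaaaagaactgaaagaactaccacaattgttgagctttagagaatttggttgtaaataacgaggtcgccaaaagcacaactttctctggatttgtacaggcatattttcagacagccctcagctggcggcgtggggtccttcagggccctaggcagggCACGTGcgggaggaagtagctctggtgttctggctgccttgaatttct
Utp20: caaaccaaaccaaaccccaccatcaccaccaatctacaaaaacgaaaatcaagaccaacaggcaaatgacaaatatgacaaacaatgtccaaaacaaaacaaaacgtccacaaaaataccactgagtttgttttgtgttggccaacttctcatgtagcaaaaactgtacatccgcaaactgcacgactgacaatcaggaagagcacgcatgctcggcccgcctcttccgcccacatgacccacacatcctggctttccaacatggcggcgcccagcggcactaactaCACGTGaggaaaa

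Counted from the RefSeq start as base 1, the first base of CACGTG lay at base 41 in *Mybbp1a*, 18 in *Wdr43*, 3 in *Pes1* and 38 in *Utp20*, thus in the transcribed part. In *Nop2* it lay 60 bases upstream of the start. TGCTGAC, a site of Maf proteins, was searched on both strands and was in a window of 0 of the 28 genes and of 4.22% of the 7134 genes past the floor. These matches are letters in a sequence and not bound sites.

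The control library held 47681895 UMIs (unique molecular identifiers, the counted molecules) in 5664 barcodes and the KO library 89872764 UMIs in 7091 barcodes, and 10 barcode sequences occurred in both. After filtering there were 4101 control LSECs with a median of 8395 UMIs and 3251 KO LSECs with a median of 13871 UMIs. Levels are given in CPM, the UMIs of a gene summed over LSECs per 1000000 UMIs outside mitochondrial and ribosomal protein genes. They are not divided by transcript length, since each 3′ UMI stands for 1 molecule. Intervals are exact 95% intervals that cover counting error only, not the spread between mice or cells. *Maf* itself was at 3471 CPM in control and 125 in KO LSECs, and 99.4% and 21.4% of them had a *Maf* UMI. The position of the deleted part of *Maf* relative to the counted 3′ end was not given. *Pecam1*, *Cdh5* and *Clec4g* had UMIs in 91.0% to 98.5% of LSECs of both libraries, whereas *Stab2* and *Fcgr2b*, further LSEC markers, had UMIs in 95.8% and 94.9% of control and in 52.4% and 40.8% of KO LSECs. LSECs here are the cells of endothelial clusters without a *Vwf* UMI. In 4 of the 16 such clusters, 2 in each library, the 10 leading genes held more markers of erythroid or stellate cells than of endothelial cells. One of these, a control cluster, was led by *Hba-a1* and by genes of hepatocytes such as *Mup11* and *Apoa1*. A further KO cluster of 46 LSECs was led by platelet genes (*Ppbp*, *Pf4*, *Gp9*) and genes of hepatocytes (*Fabp1*, *Gnmt*), for which no platelet list had been set. Values without these clusters are given below.

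The 33 genes together took 1640 CPM (1626 to 1654) in control LSECs, from 53844 UMIs, and 3928 CPM (3908 to 3947) in KO LSECs, from 157912 UMIs. The level was thus 2.40-fold higher in the KO library, a log2 ratio of 1.26 (1.25 to 1.27). Without the 4 clusters with erythroid or stellate markers it was 1.34, with 2121 KO and 3114 control LSECs left. The largest of the 4, a KO cluster of 1042 LSECs, also had *Ubd*, *Rsad2* and *Cxcl9* among its leading genes. Without the platelet-led cluster as well the log2 ratio was 1.35. All 33 genes were higher in the KO library, each with an interval above 0. Of the 32 genes that averaged at least 10 CPM over both libraries, 31 were at least 1.5-fold higher and 0 were at least 1.5-fold lower. Among all 8933 genes past this floor, 60.0% were higher, 20.2% were at least 1.5-fold higher and 9.55% at least 1.5-fold lower. *Polr1b* and *Tsr1* passed the floor only through their level in the KO library, and *Rrp12*, at 4.29 and 9.85 CPM, did not pass. The median log2 ratio of the 32 genes was 1.12, against 0.13 for all genes past the floor. Of the 32, 22 stood above the 90th percentile of all genes, and the lowest, *Pes1*, at percentile 75.5.

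The difference was also seen cell by cell. For each LSEC, the share was taken of its UMIs outside mitochondrial and ribosomal protein genes. The median share of the 33 genes was 0.154% in control (quartiles 0.114% and 0.202%) and 0.316% in the KO library (0.225% and 0.462%). At the full depth of each cell, the lower quartile of the KO library thus lay above the upper quartile of the control library. The tails overlapped, with the 10th percentile of KO LSECs at 0.164%. To compare cells at 1 depth, 2700 UMIs were drawn from each LSEC. The 406 control and 187 KO LSECs with fewer UMIs did not enter this comparison. After thinning, a median control LSEC had 4 UMIs of 3 of these genes and a median KO LSEC 7 UMIs of 5 of them. The median share was then 0.160% in control and 0.320% in the KO library. The quartiles now overlapped, with the upper quartile of control at 0.214% and the lower quartile of the KO library at 0.204%. The share of LSECs with a UMI was higher in the KO library for all 33 genes. It ran from 0.947% (*Rrp12*) to 53.8% (*Ncl*) in control and from 1.99% (*Rrp12*) to 77.0% (*Npm1*) in the KO library. Without thinning, *Ncl* was detected in 81.6% and 91.9% and *Npm1* in 77.7% and 93.2% of LSECs. No cell type in these libraries can be taken to lack these genes, so no background share is given for them.

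Among the genes of rRNA transcription, *Polr1a* and *Polr1b* encode the large catalytic subunits of RNA polymerase I. *Polr1a* was at 12.3 CPM in control and 31.4 in KO LSECs, and *Polr1b* at 8.19 and 16. *Mybbp1a*, a nucleolar partner of the polymerase, was at 50.7 and 115 CPM. *Ncl* (chr1:86344719-86359400) encodes nucleolin, an abundant protein of the nucleolus, and was at 359 and 689. It was the most abundant of the 33 genes in control, and its log2 ratio of 0.94 (0.91 to 0.97) was the lowest of this group, close to the 0.96 of *Polr1b*. The 4 genes summed had a log2 ratio of 0.99 (0.96 to 1.01).

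The box C/D snoRNP genes had the largest summed ratio of the 5 roles, at 1.67 (1.62 to 1.72) on the log2 scale. *Fbl* encodes fibrillarin, the methyltransferase, and was at 45.2 CPM in control and 123 in KO LSECs. *Nop56* (chr2:130274430-130279313) and *Nop58* (chr1:59684971-59719044) encode the paired scaffold proteins. *Nop56* was at 42.8 CPM (40.6 to 45.1) and 140 (136 to 144), a log2 ratio of 1.71 (1.62 to 1.79). *Nop58* was at 42.1 (39.9 to 44.4) and 152 (148 to 156), a log2 ratio of 1.85 (1.77 to 1.94). The 3 genes were nearly level with each other in control, and *Fbl* had the smallest ratio of them.

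The box H/ACA genes, whose products share 1 complex, differed more among themselves. *Nhp2* (chr11:51619735-51623714), a core protein, had the largest ratio of all 33 genes. It was at 30.9 CPM (29.1 to 32.9) in control and 126 (123 to 130) in KO LSECs, a log2 ratio of 2.03 (1.93 to 2.13). *Dkc1* (chrX:75095854-75109777) encodes dyskerin, the pseudouridine synthase, and was at 21.8 (20.2 to 23.5) and 84.2 (81.4 to 87.1), a log2 ratio of 1.95 (1.83 to 2.07). *Gar1* (chr3:129824912-129831396), another core protein, was at 26.5 (24.7 to 28.3) and 75.9 (73.2 to 78.6), a log2 ratio of 1.52 (1.41 to 1.63). The fourth core gene, *Nop10*, was the most abundant in control at 107 CPM and reached 204, with a log2 ratio of 0.93 (0.87 to 0.99) whose interval lay below those of the other three. *Nolc1*, a chaperone of snoRNPs, was at 42.2 and 96.6. *Nhp2* overlaps *Rmnd5b* and *Dkc1* overlaps *Mpp1*, each on the opposite strand, and 14 of the 33 genes overlap another gene. Whether the counting used the strand was not given in the sources used here.

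Small subunit factors were higher by less, with a log2 ratio of 1.05 (1.0 to 1.09) for the sum of the 9 genes and a range from 0.75 to 1.51 among the 8 past the floor. *Tsr1*, a factor of late pre-ribosomes in the cytoplasm, had the largest ratio, with 7.92 CPM in control and 22.6 in KO LSECs. *Wdr43*, part of the early processome, was the most abundant, at 44.2 and 109. *Nop14* (chr5:34638536-34660148), also of the early particle, had the smallest ratio of this group, at 33.9 CPM (31.9 to 35.9) and 56.9 (54.6 to 59.3), a log2 ratio of 0.75 (0.64 to 0.85). *Bysl* was close to it at 16.5 and 28.0, and it overlaps *Ccnd3* on the opposite strand. *Utp20*, a large scaffold, was at 21.8 and 39.9. The late factors *Ltv1* and *Nob1*, the latter the nuclease of the final cut, were at 19.0 and 39.4 and at 15.3 and 31.0. *Rrp9*, which binds a guide snoRNA of early cleavage, was at 11.9 and 24.7.

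Large subunit factors and the helicase gene ran from the smallest to the fifth largest ratio of the list, and their sum had a log2 ratio of 1.34 (1.32 to 1.36). *Npm1* (chr11:33152287-33163206) encodes nucleophosmin, the major protein of the nucleolus's outer part. It was at 320 CPM (314 to 326) in control and 986 (977 to 996) in KO LSECs, a log2 ratio of 1.63 (1.59 to 1.66), and passed *Ncl* as the most abundant of the 33 genes. *Gnl3*, the nucleolar GTPase nucleostemin, was at 51.5 and 146, and *Nop16* at 13.7 and 38.7. The 3 partners of the PeBoW complex, which is needed for large subunit maturation, differed from each other. *Pes1* (chr11:3963975-3980004) was at 33.8 CPM (31.9 to 35.9) and 47.6 (45.5 to 49.8), a log2 ratio of 0.49 (0.39 to 0.60) and the only one past the floor and under 1.5-fold. *Bop1* (chr15:76452989-76477277) was at 16 (14.7 to 17.4) and 26.7 (25.1 to 28.3), a log2 ratio of 0.74 (0.58 to 0.89). *Wdr12* was at 18.2 and 44.6, a log2 ratio of 1.29 (1.16 to 1.43), above the intervals of both partners. *Bop1* overlaps *Mroh1* and *Scx*, and *Wdr12* overlaps *Carf*, all on opposite strands.

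The remaining genes of this role lay between these. *Ddx21*, an RNA helicase of the nucleolus, was at 94.7 CPM in control and 172 in KO LSECs, and *Ebna1bp2* was at 45.8 and 82.5. *Rrs1* was at 20.2 and 48.3, *Nip7* at 26.0 and 49.7, and the methyltransferase genes *Ftsj3* and *Nop2* at 24.1 and 45.3 and at 12.2 and 25. *Ncl* and *Npm1* alone gave 41.4% of the UMIs of the list in control and 42.7% in KO LSECs. Without the 3 most abundant genes the log2 ratio of the sum was 1.26.

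**Figure D1:**
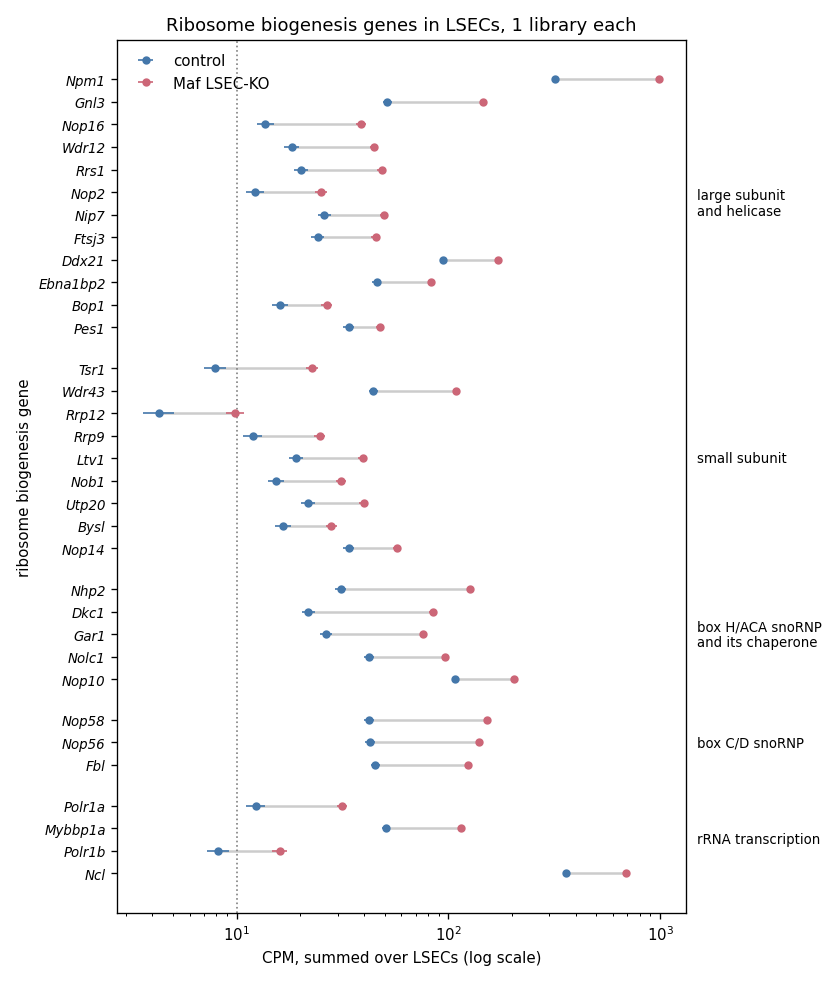
Level of each of the 33 genes in LSECs of the control (blue) and KO (red) library, in CPM on a log scale, grouped by role; bars are exact 95% counting intervals and the dotted line is the floor of 10. Every red point lies to the right of its blue point, with the longest lines for *Nhp2* and *Dkc1* and the shortest for *Pes1*.

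A wider list of 136 other ribosome biogenesis genes showed the same direction with a smaller difference. Of the 128 past the floor, 125 were higher in KO LSECs, where 60.0% of all genes were higher. At least 1.5-fold higher were 71, and 0 were at least 1.5-fold lower, where 20.2% of all genes were higher and 9.55% lower by this measure. *Rcl1*, *Wdr46*, *Tsr3* and *Noc4l*, like *Cd3eap*, *Zfp593* and *Polr1e* below, count among the 71 and passed the floor only through the KO library. Their median log2 ratio was 0.63, about midway between that of all genes and that of the 33. The largest ratios were those of *Cd3eap* and *Polr1e*, both subunits of RNA polymerase I, and of *Zfp593*, *Rrp1b* and *Ppan*, factors of the large subunit. *Cd3eap* was at 9.32 CPM in control and 32.2 in KO LSECs, a log2 ratio of 1.79. The log2 ratios were 1.66 for *Zfp593*, 1.64 for *Polr1e*, 1.64 for *Rrp1b* and 1.45 for *Ppan*. *Cd3eap*, *Zfp593* (8.80 CPM in control) and *Polr1e* (5.12) passed the floor only through the KO library, so their place in this order rests on that. Only 3 of the 128 were lower. *Sbds*, which acts in the last step of large subunit maturation, was at 141 and 128 CPM, a log2 ratio of -0.14 (-0.20 to -0.08). The intervals of *Tsr2* (log2 ratio -0.08) and *Ddx51* (-0.06) spanned 0. By role, the median was 0.75 for 48 large subunit genes, 0.70 for 11 genes of rRNA transcription, 0.66 for 7 snoRNP genes, 0.62 for 13 genes of rRNA trimming and 0.55 for 49 small subunit genes.

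**Figure D2:**
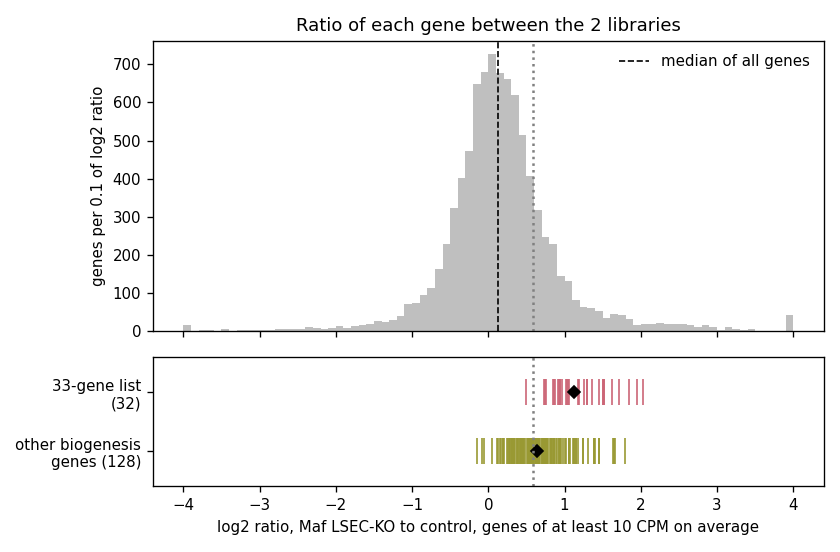
Upper plot: number of genes in each 0.1 step of the log2 ratio of KO to control LSECs for the 8933 genes past the floor, with ratios beyond 4 in either direction put in the end bars. Lower plot: each tick is 1 gene and the diamond the median; the median is 1.12 for the 33-gene list, 0.63 for the other biogenesis genes and 0.13 (dashed) for all genes, and the dotted line marks 1.5-fold.

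Several of the 33 genes hold annotated snoRNA genes within their bounds on the same strand, by the GENCODE annotation. These were *Ncl*, *Nop56*, *Nop58*, *Dkc1*, *Wdr43*, *Tsr1* and *Gnl3*, thus 7 of 33 (21.2%), against 3 of 136 (2.21%) in the wider list and 1.92% of 8928 genes past the floor. *Nop56* spans 5 snoRNA genes, among them *Snord57* and *Snord110*, and *Nop58* spans 4, among them *Snord11* and *Snord70*. The median log2 ratio was 1.51 for the 7 host genes (0.94 to 1.95) and 1.03 for the other 25 past the floor (0.49 to 2.03), and the ranges overlapped. By promoter letters the medians were nearly equal. The median log2 ratio was 1.05 for the 7 genes with CACGTG (0.49 to 1.51) and 1.06 for the 21 without CACGTG past the floor (0.75 to 2.03). The snoRNAs themselves are not read by a 3′ poly(A) library.

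Within the KO library, LSECs were also compared by their own *Maf* UMIs. Of 3251 LSECs, 2556 had 0, 346 had 1 and 349 had at least 2. The 33 genes took 4027 CPM (4004 to 4050) in LSECs with 0 *Maf* UMIs, 3924 (3871 to 3977) with 1, and 3250 (3198 to 3304) with at least 2. The log2 ratio of 0 to at least 2 *Maf* UMIs was 0.31 (0.28 to 0.33). Of the 32 genes past the floor, 31 were higher in LSECs with 0 *Maf* UMIs, where 52.2% of 9094 genes were. The exception, *Bysl*, had a log2 ratio of -0.04. At least 1.5-fold higher was 1 (*Dkc1*, log2 ratio 0.59) and at least 1.5-fold lower were 0, where 3.38% of 9094 genes were higher and 4.75% lower by this measure. Markers of other cell types also differed between these classes. Stellate markers took 0.00494% of UMIs with 0 *Maf* UMIs and 0.0733% with at least 2, and macrophage markers 0.00767% and 0.0212%. Without the clusters led by erythroid, stellate or platelet genes the log2 ratio was 0.46 (0.43 to 0.49), with 1573 and 285 LSECs left.

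The LSECs with at least 2 *Maf* UMIs were not of 1 kind. Those with 2 to 4 (136 cells, median 16674 UMIs) were at 4034 CPM, level with LSECs of 0 *Maf* UMIs. Those with at least 5 (213 cells, median 10164 UMIs) were at 2504 (2439 to 2570). This was lower than in all other *Maf* classes of that library, yet above the 1625 (1612 to 1640) of the 3721 control LSECs with at least 5 *Maf* UMIs. Against all control LSECs, KO LSECs with at least 5 *Maf* UMIs had a log2 ratio of 0.61 (0.57 to 0.65), and those with 0 a log2 ratio of 1.30 (1.28 to 1.31). Since a deep cell can show 2 *Maf* UMIs more easily, the classes were compared at like depth. The log2 ratio of 0 to at least 2 *Maf* UMIs was 0.88 (0.80 to 0.97) among LSECs of 5000 to 10000 UMIs, from 3405 and 1845 CPM, and 0.35 (0.31 to 0.40) among those of 10000 to 20000. In the shallower of these bins 26 of 32 genes were at least 1.5-fold higher with 0 *Maf* UMIs and 0 lower, where 20.2% of 8969 genes were higher and 13.4% lower. In the deeper bin 1 of 32 was higher and 0 lower, where 7.58% of 9015 genes were higher and 8.81% lower. Free *Maf* RNA, for instance from macrophage-like cells, which held 1508 *Maf* CPM in that library, can also give a *Maf* UMI to an LSEC, and its part was not tested.

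Control LSECs almost all had *Maf* UMIs, and only 23 had 0. These were shallow (median 2668 UMIs) and held 1950 CPM of the 33 genes (1652 to 2287), above the control average of 1640. Control LSECs with 2 to 4 *Maf* UMIs, also shallow (median 2733 UMIs), were at 2093 (1990 to 2199). Ribosomal protein genes took a median of 16.6% and 13% of the UMIs in these cells and 6.99% in control LSECs with at least 5 *Maf* UMIs. Erythroid markers took 4.05% of the UMIs of the 23 LSECs with 0 *Maf* UMIs and 0.102% of those with at least 2, and stellate markers 0.180% and 0.0100%.

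**Figure D3:**
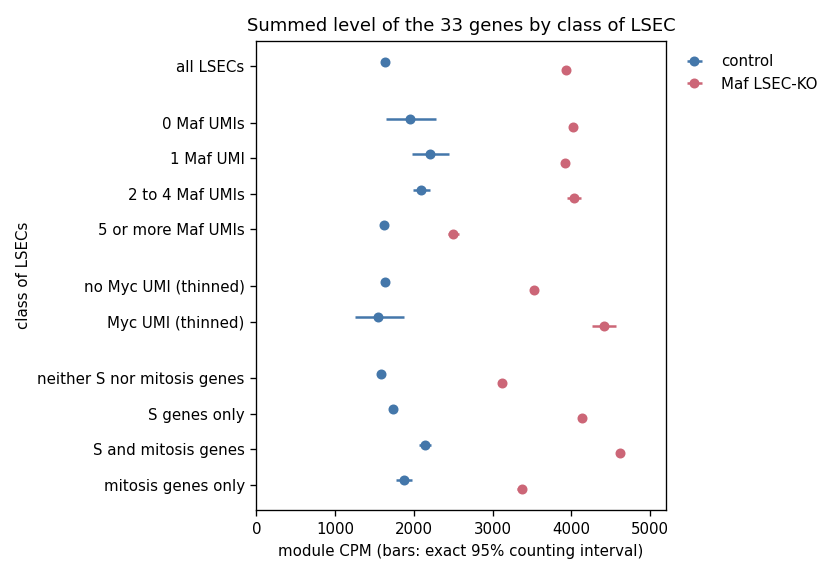
CPM of the 33 genes together in classes of LSECs, for control (blue) and KO (red), with exact 95% counting intervals; the Myc classes were set after each cell was thinned. In every class the red point lies to the right of the blue one, and in the KO library the lowest class is that with 5 or more *Maf* UMIs (2504) and the highest that with both S-phase and mitosis genes (4622).

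*Myc* was at 4.72 CPM (4.01 to 5.52) in control and 77.3 (74.6 to 80.0) in KO LSECs, a log2 ratio of 4.03 (3.80 to 4.28). A *Myc* UMI was found in 2.76% of control and 37.6% of KO LSECs, and after thinning in 27 of 3695 (0.731%) and 358 of 3064 (11.7%). In macrophage-like cells, which may express *Myc* themselves, the unthinned shares were 4.57% and 12.6%, at median depths of 5136 and 4558 UMIs. No cell type here is certain to lack *Myc*, so the part of free RNA in these shares was not tested. Within the KO library, thinned LSECs with a *Myc* UMI held 4410 CPM of the 33 genes (4260 to 4564) and those without held 3528 (3479 to 3577), a log2 ratio of 0.32 (0.27 to 0.38). At these counts 31 of 33 genes were higher with a *Myc* UMI, where 53.2% of 9027 genes were. *Ftsj3* and *Polr1b* were at -0.14 and -0.24. *Utp20*, *Nop14* and *Rrp12* were at least 1.5-fold higher and 0 genes at least 1.5-fold lower, where 4.8% of 9027 genes were higher and 4.72% lower by this measure. *Rrp12* was near the floor, at 9.85 CPM in KO LSECs at full depth. After thinning it had a UMI in 1.99% of KO LSECs, so its ratio here rests on few UMIs.

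The difference between the libraries was present in both *Myc* classes. Without a *Myc* UMI after thinning, KO LSECs were at 3528 and control LSECs at 1636 CPM, a log2 ratio of 1.11 (1.08 to 1.14). With a *Myc* UMI, they were at 4410 and 1540, a log2 ratio of 1.52 (1.23 to 1.82), where the control value rests on 98 UMIs in 27 cells. In control, LSECs with and without a *Myc* UMI differed by -0.09 on the log2 scale (-0.39 to 0.20), an interval that holds 0 and ends below the value of the KO library. At full depth, where 113 control LSECs had a *Myc* UMI, the log2 ratio was 0.42 (0.37 to 0.48). Thinned cells without a *Myc* UMI may still express *Myc*, since 1 UMI in 2700 is the least they can show.

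Cells were called cycling when they had UMIs of at least 3 of 20 mitosis genes, and 4.0% of control (164) and 36.2% of KO LSECs (1176) were. *Mki67*, a proliferation marker, was at 47.8 and 286 CPM, a log2 ratio of 2.58. The cut ran through a range without a gap, since 296 control LSECs had exactly 2 and 78 exactly 3 of these genes, and 677 and 369 LSECs of the KO library. In control, cycling LSECs held 2053 CPM of the 33 genes (1996 to 2112) and the others 1607 (1593 to 1622), a log2 ratio of 0.35 (0.31 to 0.40). In the KO library they held 4367 (4339 to 4396) and 3459 (3433 to 3485), a log2 ratio of 0.34 (0.32 to 0.35). These ratios were near each other only without regard to depth. After thinning they were 0.47 (0.30 to 0.63) in control and 0.22 (0.17 to 0.27) in the KO library, and in LSECs of 5000 to 20000 UMIs 0.47 (0.41 to 0.53) and 0.19 (0.16 to 0.21). Of the genes past the floor in control, 24 of 29 were higher in cycling LSECs, where 57.8% of 8761 genes were. At least 1.5-fold higher were 4 (*Nop56*, *Nop58*, *Dkc1* and *Gar1*), against 8.64% of genes. Of the 4 genes under the floor there, *Rrp9* and *Polr1b* had log2 ratios of -1.07 and -0.62. In the KO library 31 of 32 were higher, where 51.1% of 9028 genes were. At least 1.5-fold higher was 1 (*Nop56*, log2 ratio 0.63), against 5.74% of genes. In both libraries 0 were at least 1.5-fold lower, against 1.66% and 1.3% of genes. Cycling LSECs were deeper, with medians of 14847 against 8177 UMIs in control and 20566 against 11168 in the KO library.

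With S-phase genes added as a further axis (UMIs of at least 5 of 16 genes), the order of the classes was the same in both libraries at its ends. LSECs with neither set were lowest in both, at 1584 CPM in control and 3121 in the KO library, and LSECs with both were highest, at 2140 and 4622. LSECs with S-phase genes alone were at 1732 and 4135, and those with mitosis genes alone at 1873 and 3369. In the KO library the S-phase class thus stood above the class with mitosis genes alone, and in control below it, with intervals that did not overlap in either library. The log2 ratio of S-phase genes alone to neither was 0.13 (0.09 to 0.16) in control and 0.41 (0.38 to 0.43) in the KO library. These classes depend on depth, which was not matched between them.

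Between the libraries, LSECs with UMIs of 0 mitosis genes held 3285 CPM in 541 KO cells and 1590 in 2117 control cells, a log2 ratio of 1.05 (1.01 to 1.08). Their median depths were close, at 6473 and 6600 UMIs. All 32 genes past the floor were higher there, where 58.7% of 8799 genes were. At least 1.5-fold higher were 31 and at least 1.5-fold lower 0, against 15.2% and 8.34% of genes. *Dkc1* (log2 ratio 1.93), *Nhp2* (1.72) and *Nop58* (1.69) again led, and *Pes1* was at 0.50. Cycling LSECs of the libraries had a log2 ratio of 1.09 (1.05 to 1.13), an interval that overlapped that of LSECs with 0 mitosis genes. The latter still held cells with S-phase genes. With UMIs of at most 2 S-phase genes as well, their log2 ratio was 0.88 (0.84 to 0.93), below the interval of cycling LSECs.

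The level of the 33 genes differed little between depth bins in both libraries, except that it was higher in the deepest bin of the KO library. In control it was 1827 CPM in LSECs of 1500 to 3000 UMIs, 1665 up to 5000, 1548 up to 10000, 1643 up to 20000, and 1780 above. In the KO library it was 3072, 3198, 3154, 3388 and 4481 in the same order. The log2 ratio between libraries was 0.75, 0.94, 1.03, 1.04 and 1.33 in these bins. In the shallowest bin the median of all genes was 0.05, and *Pes1* had a log2 ratio of -0.75 there. The deepest bin held 890 KO and 182 control LSECs, of which 66.4% and 9.89% had a *Myc* UMI.

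**Figure D4:**
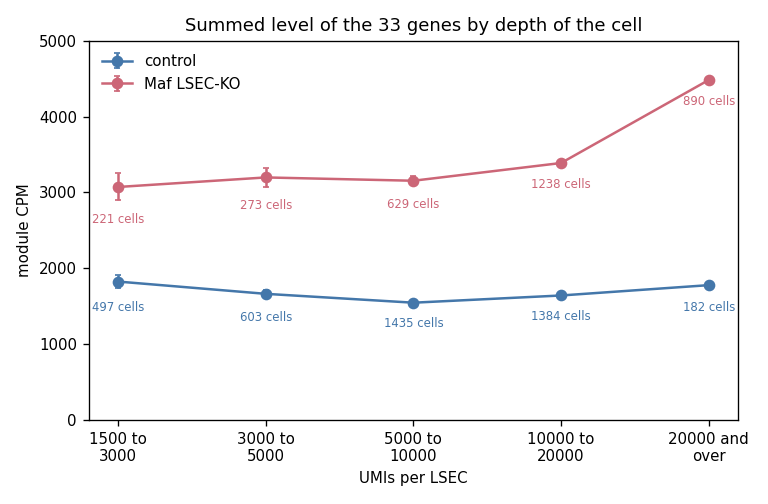
CPM of the 33 genes together in LSECs binned by their total UMIs, for control (blue) and KO (red), with exact 95% counting intervals and the number of cells in each bin. The lines do not meet: control stays between 1548 and 1827, and KO between 3072 and 4481 with its rise in the deepest bin.

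By cluster, the control library ranged from 1271 CPM, in a shallow cluster with a median of 11.1% mitochondrial UMIs, to 2194 in a cluster led by *Mki67* and *Top2a*. Of 9 KO clusters, 8 stood above the highest of the 7 control clusters, among them the platelet-led cluster at 2957 (2717 to 3212) and 2 with erythroid or stellate markers. The highest, at 5615 (5560 to 5671), was led by the replication genes *Hells*, *Ung* and *Dtl*. The exception, at 2002 (1935 to 2072), was led by *Dnase1l3* and *Maf* and held 198 LSECs. The 4 clusters whose leading genes held more markers of erythroid or stellate cells were at 2132 and 1271 in control and at 3586 and 3092 in the KO library, and without them the log2 ratio between the libraries was 1.34.

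Macrophage-like cells, named from their markers and led by *C1qa* and *Cd5l*, had a smaller ratio between the libraries than LSECs. The 33 genes were at 1931 CPM (1862 to 2003) in 219 control and 2285 (2223 to 2347) in 390 KO cells, a log2 ratio of 0.24 (0.18 to 0.31). Of 31 genes past the floor, 21 were higher, where 50.7% of all genes were. *Nhp2*, the leading gene in LSECs, had a log2 ratio of -0.29 there, and *Nop58* one of 0.40. *Maf* was nearly level in them, at 1522 and 1508 CPM. They also held *Clec4g*, at 934 and 205 CPM, and so some RNA of LSECs.

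**Figure D5:**
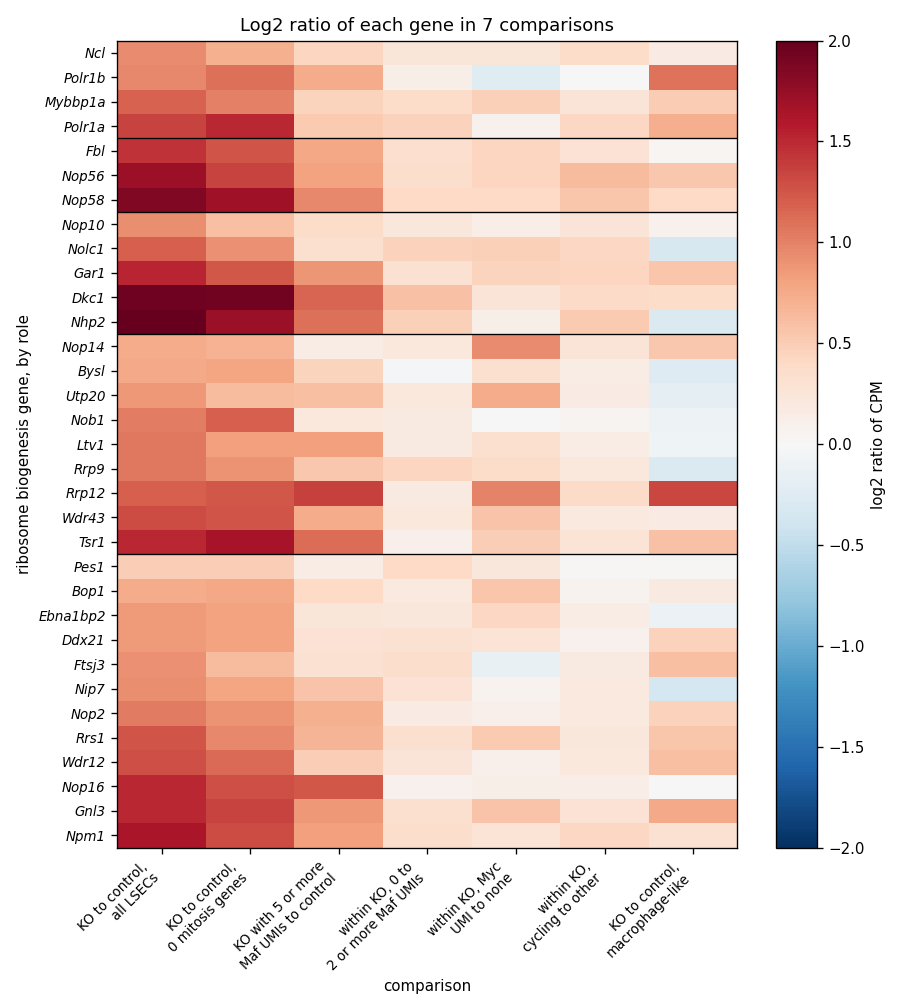
Log2 ratio of each of the 33 genes, by role, in 7 comparisons (columns; KO is *Maf* LSEC-KO), from blue (lower) to red (higher). The columns that set KO against control LSECs are red throughout, the within-library columns are paler, and the column of macrophage-like cells holds both colors, with *Nhp2* at -0.29.

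Other measures moved with these genes. Ribosomal protein genes, which are in neither the list nor its denominator, took 7.66% of all UMIs in control and 18.6% in KO LSECs. With the UMIs of all genes as the denominator the log2 ratio of the 33 genes was 1.07. Immediate early and heat shock genes, which respond to handling, took 0.150% and 0.348% of UMIs, whereas mitochondrial genes took 4.45% and 4.34%. The summed markers of macrophages were at 72.1 and 128 CPM in LSECs (10 of 10 detected in both), of neutrophils and monocytes at 79.3 and 186 (*Chil3* at 0 in control), of T and NK cells at 1.43 and 8.26 (*Cd3g* at 0 in control), and of stellate cells at 119 and 195 (10 of 10 in both). Those of erythroid cells were at 1267 and 24.6 (*Slc4a1* at 0 in control), of hepatocytes at 148 and 79.0 (10 of 10 in both), of dendritic cells at 1531 and 1878 (*Flt3* at 0 in control, *Siglech* in KO) and of B cells at 3.87 and 4.08 (10 of 10 in both). The log2 ratio was 1.27 without LSECs that held UMIs of 2 such markers of 1 cell type, counting the markers found in at most 10% of LSECs, a filter chosen after seeing the data. The part of the ribosomal protein and immediate early genes in the result was not tested.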

How the data were processed

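Droplet 3′ scRNA-seq libraries of 1 control and 1 *Maf* LSEC-KO pool were analysed. The authors deposited raw UMI counts for every gene in every barcode, aligned to mm10 and not normalized. The submitters' processing notes name Cell Ranger 6.0.2 and Seurat 5.0.1. The 33 genes and all gene lists were chosen with earlier results of these data known.

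Barcodes of at least 1500 UMIs and 750 genes were kept and clustered per library (Seurat 5.3.0, R 4.3.3, log-normalization, 16 and 20 principal components, resolution 0.3). Scrublet in scanpy 1.11.5 marked 0 doublets by its automatic limit in both libraries, so the 225 and 308 cells with the highest scores were removed, at a rate of 0.8% per 1000 barcodes. LSECs were cells without *Vwf* UMIs, from clusters where *Pecam1* and 7 or more of 14 endothelial genes were found in 50% of cells. None of *Ptprc*, *Cd52*, *Adgre1*, *Clec4f*, *Arg1* or *Acta1* passed 50% in these clusters. The longer marker lists, such as those of erythroid and stellate cells, were not part of this rule. Other clusters were named -like from marker lists.

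UMIs were summed over LSECs and given as CPM of the sum of all genes except 13 mitochondrial and 85 ribosomal protein genes (32837777 and 40202697 UMIs). Exact 95% intervals were Poisson for levels and binomial for ratios and shares (scipy 1.17.1). TMM factors came from edgeR 4.0.16. The computations were tested on simulated data.

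Named in full were the 6 largest and 3 smallest ratios among members of at least 10 CPM, and of the wider list the 5 largest and 3 smallest. Of 145 names in the wider list, 136 were found. Alternatives covered scaling, depth, doublets, cell filters, floors and class limits. Bulk RNA-seq and ATAC-seq were not analysed here. The summed markers of 1 further cell type are not reported here.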

Additional observations from a re-analysis of the deposited data

Results flagged for a closer look

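Endothelial cells with a *Vwf* UMI were outside the comparisons of the report, which kept cells without one. They also held the ribosome biogenesis genes at a higher level in the *Maf* LSEC-KO library, at 3316 CPM in 1182 cells against 1777 in 161 control cells, a log2 ratio of 0.90 (0.85 to 0.95). All 32 genes past the floor were higher there, from *Ftsj3* (log2 ratio 0.14) to *Tsr1* (1.77), where 58.4% of 8972 genes were. At least 1.5-fold higher were 23 of the 32 and at least 1.5-fold lower 0, against 1313 and 742 of the 8972 genes. With 1 library per group this difference was not tested.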

How the results depend on the processing

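With 1 library per group no replicate could be left out, and what differs between the pools other than genotype cannot be told apart from it. No paired analysis was possible because each group had 1 library. Of 54 alternatives, 18 stayed within the counting interval of the reported value or within 1.5 times the reported count, 36 moved beyond it and 0 turned a direction whose interval excluded 0. The cause of these shifts was not tested. The log2 ratio of the 33 genes between the libraries (1.26) was 1.185 with *Vwf* cells kept, 1.07 with all genes in the denominator, 1.095 with TMM factors, 1.14 as a mean over cells, 1.15 after thinning, 1.05 in LSECs of 5000 to 20000 UMIs, 1.04 in the 203 *Maf* LSEC-KO and 536 control LSECs without UMIs of 2 marker genes of another cell type, and 1.30 for *Maf* LSEC-KO LSECs with 0 *Maf* UMIs. In alternatives chosen after seeing the data it was 0.61 with at least 5 *Maf* UMIs, 1.16 without the highest cluster, 1.34 without clusters led by other markers and 1.35 also without the platelet-led one. At least 2-fold higher were 20 genes, where the 90th percentile of all genes past the floor was a log2 ratio of 0.94. The median of the wider list (0.63) was 0.44 with all genes in the denominator and 0.53 with 0 mitosis genes.

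For 0 against at least 2 *Maf* UMIs (0.31), the log2 ratio was 0.15 against at least 1, 0.69 against at least 5, 0.68 with 0 mitosis genes, 0.49 in LSECs of 5000 to 20000 UMIs and, chosen after seeing the data, 0.88 and 0.35 in LSECs of 5000 to 10000 and 10000 to 20000 and 0.46 without clusters led by other markers or platelet genes. For a *Myc* UMI it was 0.42 in control (-0.09) and 0.46 in *Maf* LSEC-KO (0.32) at full depth, and 1.12 (1 control cell) and 0.25 for at least 2 UMIs. The *Maf* LSEC-KO value was 0.39 in LSECs of 5000 to 20000 UMIs, a limit added after seeing the data. For cycling cells it was, in control (0.35) and *Maf* LSEC-KO (0.34), 0.22 and 0.30 with at least 2 mitosis genes, 0.42 and 0.37 with at least 5, 0.47 and 0.22 after thinning, and 0.47 and 0.19 in LSECs of 5000 to 20000 UMIs, again added after seeing the data. For non-cycling LSECs (1.05) it was 0.88 with at most 2 S-phase genes.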
